A study of Mus musculus with 6 samples.

Results

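The genes of the proteasome were examined in mouse tongue, as the genes whose symbol begins with Psma, Psmb, Psmc or Psmd followed by a number. This rule, which used no measured value, gave 40 of 18193 genes. Of these, 39 encode subunits of the proteasome or chaperones of its assembly, and Psmc3ip, a cofactor of homologous recombination, was matched by its text only. Total RNA was taken from whole tongues of adult C57BL/6J mice, an inbred laboratory strain, and measured on Affymetrix mouse arrays, with each tongue on its own array. The 3 control mice received no treatment. The other 3 mice drank 4-nitroquinoline 1-oxide (4NQO), a carcinogen whose products form adducts on DNA, for 8 weeks at 100 μg/ml. The deposited values are normalized log2 signals per probe set, and a gene with several probe sets was represented by the brightest on average across the 6 tongues. A signal depends on the probes, so that signals of different genes were not compared as levels. Markers of the labelled tissue were bright, with 10 skeletal muscle markers at mean log2 signals of 7.77 to 13.9 and 9 keratinocyte markers at 9.35 to 13.7, against array medians of 4.45 to 4.60. Whole tongue is a mixture of cell types, and more cells of a type and more RNA per cell cannot be told apart in it.

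The proteasome degrades proteins that carry ubiquitin chains. Its barrel-shaped 20S core is built of outer rings of α subunits, which form the gate, and inner rings of β subunits, which hold the cutting sites. The 19S regulatory particle sits on the end of the barrel. Its ATPases (Psmc genes) unfold the substrate and its non-ATPase subunits (Psmd genes) bind ubiquitin, remove it and hold the particle together. Interferon-γ is known to induce the immunosubunits Psmb8, Psmb9 and Psmb10, which take the places of the constitutive catalytic subunits Psmb5, Psmb6 and Psmb7 in newly built cores. The resulting immunoproteasome cuts proteins into peptides that fit MHC class I molecules, and leukocytes hold it even without stimulation.

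No proteasome gene passed the test between 4NQO-treated and control tongue, and the measured differences were largest for the immunosubunits Psmb9 and Psmb8. At an adjusted p under 0.05 from limma, 0 of 40 genes were higher and 0 were lower, where 0.132% of all genes passed in either direction. At an unadjusted p under 0.05, 4 genes were higher (Psmb8, Psmb9, Psmb10 and Psmd5), against 6.68% of all genes, and 1 gene was lower (Psmd1), against 3.74% of all genes. SAM, a permutation-based test named in the study's methods, called 83 genes higher over the whole array, and 0 of them were proteasome genes. In 8 genes every 4NQO-treated tongue lay above every control tongue, which was so for 9.59% of all genes. In 0 genes did every 4NQO-treated tongue lie below the control tongues, which was so for 7.18% of all genes. The 8 genes were the 3 immunosubunits, Psma2, Psma3, Psmd5, Psmd14 and Psmc3ip. The median log2 fold change was 0.08 over the 40 genes and -0.01 over all genes.

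**Figure D1:**
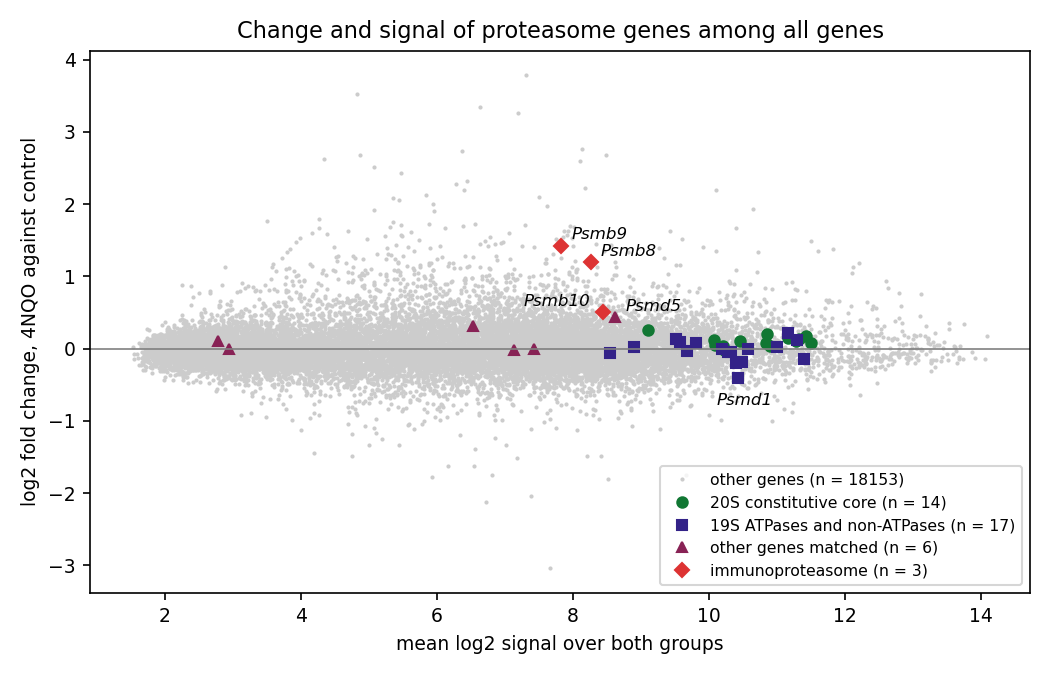
Log2 fold change of 4NQO-treated against control tongue (y axis) plotted against the mean log2 signal over both groups (x axis), with 1 point per gene: 14 constitutive core genes, 17 19S genes, 3 immunosubunits, 6 other matched genes and, in grey, all other genes. Psmb9 and Psmb8 lie at 1.43 and 1.20, while the core and 19S genes lie between -0.41 and 0.26.

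The immunosubunits had higher signals in each treated tongue than in each control tongue. Psmb8, the chymotrypsin-like immunosubunit that replaces Psmb5, had log2 signals of 8.00, 7.48 and 7.51 in control 1, 2 and 3 and of 8.44, 8.98 and 9.17 in 4NQO 1, 2 and 3. The groups did not overlap, and the lowest treated tongue, 4NQO 1, stood 0.44 above the highest control tongue, control 1. The log2 fold change was 1.20 (standard error 0.23, 95% interval 0.67 to 1.73), or 2.30-fold, with an adjusted p of 0.115 from limma.

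Psmb9, which replaces Psmb6, had log2 signals of 7.89, 6.80 and 6.65 in the control tongues and of 8.21, 8.70 and 8.70 in the treated tongues. Control 1 was more than 1 log2 unit above the other control tongues and still below each treated tongue. The log2 fold change was 1.43 (standard error 0.33, 95% interval 0.67 to 2.18), or 2.69-fold (adjusted p = 0.181 from limma).

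Psmb10, which replaces Psmb7 and gives trypsin-like cutting, had log2 signals of 8.44, 8.23 and 7.89 in the control tongues and of 8.56, 8.60 and 8.91 in the treated tongues. The groups were close, with 8.44 in control 1 against 8.56 in 4NQO 1. The log2 fold change was 0.50 (standard error 0.18, 95% interval 0.08 to 0.92), or 1.41-fold (adjusted p = 0.404 from limma). Its unadjusted p was 0.0255, and it was 0.0813 without control replicate 3 and 0.0943 without 4NQO replicate 3.

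Without control replicate 1, the control tongue nearest to the treated ones, the log2 fold changes of Psmb8, Psmb9 and Psmb10 were 1.37, 1.81 and 0.63, with adjusted p-values of 0.171, 0.0581 and 0.445 from limma. A second probe set of Psmb8, with a mean log2 signal of 2.50 that is below the array medians, had a log2 fold change of 0.01. The mean of both probe sets gave Psmb8 a log2 fold change of 0.60. Psmb9 and Psmb10 had 1 probe set each.

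The constitutive catalytic subunits had nearly the same signal in both groups. Psmb5, which holds the chymotrypsin-like site, had log2 signals of 11.29, 11.22 and 11.21 in the control tongues and of 11.25, 11.34 and 11.43 in the treated tongues. The groups overlapped, and the log2 fold change was 0.10 (95% interval -0.14 to 0.34). Psmb6, with the caspase-like site, had log2 signals of 10.95, 10.70 and 10.76 in the control tongues and of 10.82, 10.93 and 10.90 in the treated tongues. Psmb7, with the trypsin-like site, had 10.48, 10.07 and 10.16 in the control tongues and 10.03, 10.27 and 10.35 in the treated tongues. For both genes the highest signal of all 6 tongues was that of control 1. Their log2 fold changes were 0.08 (95% interval -0.18 to 0.35) and -0.02 (95% interval -0.37 to 0.33), and the adjusted p-values of Psmb5, Psmb6 and Psmb7 were 0.752, 0.830 and 0.971 from limma.

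**Figure D2:**
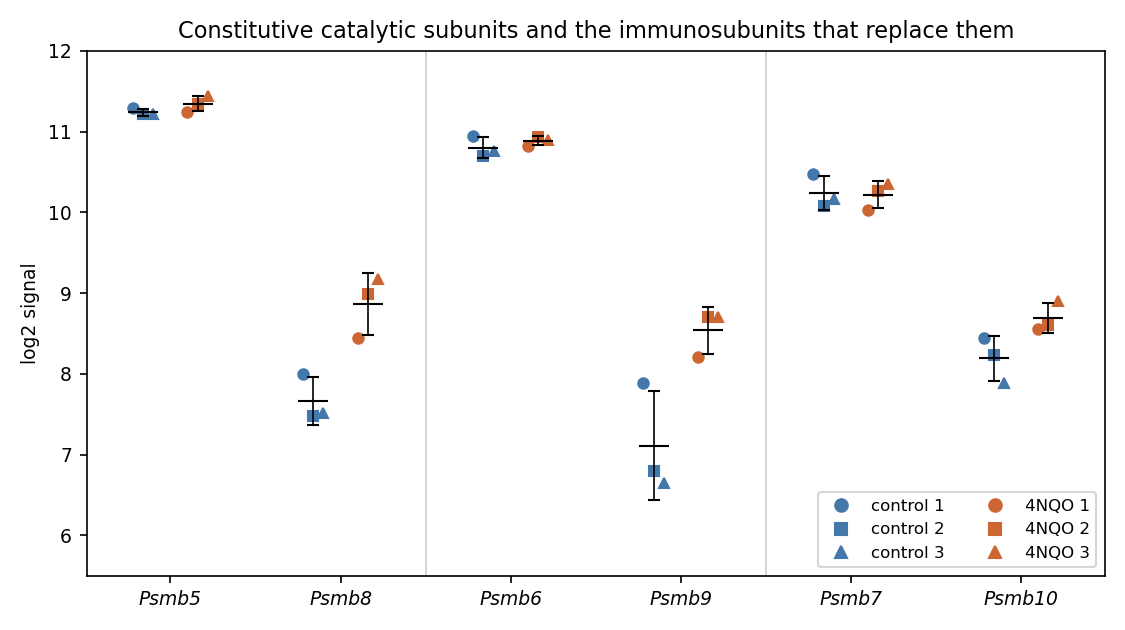
Log2 signal (y axis) of each constitutive catalytic subunit and, to its right, the immunosubunit that replaces it, with 1 point per tongue, a horizontal bar at each group mean and whiskers of 1 SD (n = 3 per group). The treated tongues lie above all control tongues for Psmb8, Psmb9 and Psmb10, and the groups overlap for Psmb5, Psmb6 and Psmb7.

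The difference between each immunosubunit and the subunit it replaces was then taken within each tongue. Only the change of this difference between groups can be read, since the signals belong to different probe sets. Psmb8 minus Psmb5 was -3.57 ± 0.25 (SD, n = 3) on the log2 scale in the control group and -2.48 ± 0.29 (SD, n = 3) in the treated group, a change of 1.10. Psmb9 minus Psmb6 was -3.69 ± 0.55 (SD, n = 3) in the control group and -2.35 ± 0.23 (SD, n = 3) in the treated group, a change of 1.34. Psmb10 minus Psmb7 was -2.05 ± 0.22 (SD, n = 3) in the control group and -1.53 ± 0.12 (SD, n = 3) in the treated group, a change of 0.52. In all 3 pairs the groups did not overlap, as was already so for the immunosubunits alone. Each two-sided exact permutation p was 0.1, and 0.1 after adjustment over the 3 pairs. This is the smallest value that 3 tongues against 3 can give. How often other pairs of genes separate in this way was not counted.

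Upstream sequence of a few of these genes is shown because their transcription is known to answer to different signals, interferon for the immunosubunits and the factors NRF1 and NRF2 for the constitutive ones. RefSeq promoter windows of GRCm38.p6 held 33 of the 40 genes, and Psma8, Psmb1, Psmb2, Psmb7, Psmc3, Psmd3 and Psmd7 had no entry. The 250 bases before each start were searched on both strands for TTCNNNGAA (the γ-activated site bound by STAT factors), AANNGAAA (the core bound by interferon regulatory factors) and TGACNNNGC (the core of the antioxidant response element bound by NRF1 and NRF2). In the lines that follow, given 5′ to 3′ along the strand of the proteasome gene, capitals mark these matches. Psmb8 lies on chromosome 17 (plus strand, chr17:34197945-34198194), Psmb5 on chromosome 14 (minus strand, chr14:54617996-54618245) and Psmb6 on chromosome 11 (plus strand, chr11:70525107-70525356). The last line is the stretch of 225 bases between the starts of Psmb9 (minus strand) and Tap1 (plus strand), which face away from each other on chromosome 17 (chr17:34187331-34187555).
Psmb8: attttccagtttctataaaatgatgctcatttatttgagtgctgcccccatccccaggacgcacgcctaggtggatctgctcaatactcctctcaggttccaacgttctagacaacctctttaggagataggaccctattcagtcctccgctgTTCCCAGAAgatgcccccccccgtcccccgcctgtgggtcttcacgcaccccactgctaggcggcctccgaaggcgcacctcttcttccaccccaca
Psmb5: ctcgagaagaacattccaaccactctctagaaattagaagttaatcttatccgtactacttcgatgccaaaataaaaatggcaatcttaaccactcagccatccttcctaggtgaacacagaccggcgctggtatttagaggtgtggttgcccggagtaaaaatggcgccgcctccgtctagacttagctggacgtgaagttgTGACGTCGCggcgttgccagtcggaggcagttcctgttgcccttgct
Psmb6: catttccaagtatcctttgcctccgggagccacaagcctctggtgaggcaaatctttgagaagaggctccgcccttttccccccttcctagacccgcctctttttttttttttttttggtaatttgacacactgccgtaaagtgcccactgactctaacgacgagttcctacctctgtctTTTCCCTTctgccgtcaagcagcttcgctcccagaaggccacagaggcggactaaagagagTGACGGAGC
Psmb9 to Tap1: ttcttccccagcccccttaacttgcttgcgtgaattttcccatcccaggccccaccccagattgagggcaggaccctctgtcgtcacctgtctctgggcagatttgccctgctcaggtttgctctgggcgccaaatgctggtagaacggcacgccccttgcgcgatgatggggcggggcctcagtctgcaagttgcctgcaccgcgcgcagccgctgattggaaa

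Proteasome genes were counted once per gene and the comparison once per window, so that the shares are not fully alike. The γ-activated site letters occurred upstream of 1 of the 33 genes (3.03%), Psmb8 (TTCCCAGAA), and in 7.02% of all 32851 windows. The NRF core letters occurred upstream of 5 genes (Psmb5, Psmb6, Psmc6, Psmd9 and Psmd12), 15.2% of those with a window, and in 10.2% of all windows. In Psmb5 these letters (TGACGTCGC) begin 47 bases before the start. The interferon regulatory factor core occurred upstream of 9 genes, 27.3% of those with a window, and in 21.3% of all windows. The genes were Psma3, Psmb3, Psmb6, Psmc2, Psmd4, Psmd6, Psmd8, Psmd9 and Psmd11, with no immunosubunit among them. Psmb6 held it on the opposite strand (TTTCCCTT as printed). Psmb9 and Psmb10 had windows that held none of the motifs. In 0 of the members' windows did matches to different motifs overlap. A match describes the letters only, and binding was not measured. Psmb9, Tap1, Psmb8 and Tap2 are neighbours in this order on chromosome 17, within the MHC. Tap1, a subunit of the pump that carries peptides to class I molecules, had log2 signals of 7.78, 6.32 and 6.89 in the control tongues and of 8.45, 8.64 and 8.47 in the treated tongues. Like Psmb9, it was highest among the controls in control 1, and its log2 fold change was 1.52 (adjusted p = 0.149 from limma). The other probe sets of Tap1, below the array medians at mean log2 signals of 1.84 to 3.26, had -0.17 to 0.15.

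The other genes of the 20S core had small differences, mostly upward. Of the 14 constitutive core genes, 13 had a positive log2 fold change, against 47.7% of all genes. Their median was 0.11, with a range of -0.02 to 0.26. An unadjusted p under 0.05 was reached by 0 of them, against 6.68% of all genes on the higher side and 3.74% on the lower. For 13 of the 14 genes the whole 95% interval lay within 0.5 log2 units of 0, which was so for 7428 of all 18193 genes. All 7 genes of the α ring were on the positive side, with a median of 0.15, from 0.04 for Psma4 to 0.26 for Psma1. Psma3 had log2 signals of 10.77, 10.71 and 10.79 in the control tongues and of 11.04, 10.98 and 10.87 in the treated tongues. Psma2 had 11.38, 11.27 and 11.36 in the control tongues and 11.43, 11.58 and 11.53 in the treated tongues. These α subunits did not overlap between groups, but the gaps between groups were 0.08 log2 units or less, and their log2 fold changes were 0.21 and 0.18 (adjusted p = 0.543 and 0.583 from limma).

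The 4 structural β genes without a cutting site had log2 fold changes of 0.04 to 0.14. Psmb3 had the highest, 0.14 (adjusted p = 0.724 from limma), and Psmb4 had 0.08 (adjusted p = 0.823 from limma). A second, dimmer probe set of Psmb4 had log2 signals of 7.11, 7.15 and 7.15 in the control tongues and of 7.89, 8.44 and 7.53 in the treated tongues. Its log2 fold change of 0.82 differed from that of the brighter probe set and did not pass over all single-gene probe sets (adjusted p = 0.300 from limma). Across the 14 core genes, the lowest of the 6 signals was that of control 2 in 6 genes and of control 3 in 7, and the highest was that of 4NQO 2 in 7.

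Psma8, an α subunit of the testis, and Psmb11, the catalytic subunit of thymic cortical epithelium, are not known for expression in tongue. Their log2 signals lay between 2.57 and 3.35 in all 6 tongues, below the array medians, so that expression above background was not established. Their log2 fold changes were 0.10 and -0.00017.

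The 19S genes that the rule matched moved little and in both directions. Of these 17 genes, 7 had a positive and 10 a negative log2 fold change, with a median of -0.01, and 47.7% of all genes were positive. Sem1, a 19S subunit whose symbol the rule does not match, is not among them and had 0.26. The 95% interval lay within 0.5 log2 units of 0 in 12 genes and within 1 unit in all 17. Over all 18193 genes this was so for 7428 and 16231. Among the ATPases, which form the unfolding ring, Psmc4 and Psmc6 had log2 fold changes of 0.10 and 0.07, and Psmc3 and Psmc5 had -0.19 and -0.20, with adjusted p-values of 0.694 to 0.865 from limma. Psmc5 had its lowest log2 signal in 4NQO 2, 9.98, and lay between 10.32 and 10.73 in the other tongues.

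Psmd1, a large scaffold subunit of the base, had log2 signals of 10.94, 10.65 and 10.31 in the control tongues and of 10.39, 10.17 and 10.11 in the treated tongues. Control 3 lay among the treated tongues, so that the groups overlapped. The log2 fold change was -0.41 (standard error 0.18, limma adjusted p = 0.477), and it was -0.25 without control replicate 1. Its unadjusted p of 0.0495 was 0.165 without that array. Psmd4, a ubiquitin receptor, had a log2 fold change of -0.15 (limma, adjusted p = 0.735).

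Psmd14, the deubiquitinase that cuts ubiquitin chains from the substrate, had log2 signals of 10.97, 11.10 and 11.12 in the control tongues and of 11.21, 11.41 and 11.22 in the treated tongues. The groups did not overlap, with 0.08 between the nearest tongues, and the log2 fold change was 0.21 (adjusted p = 0.553 from limma). Psmd11, which takes part in particle assembly, had a log2 fold change of 0.12 (limma, adjusted p = 0.752). In 10 of the 17 19S genes the highest signal of all 6 tongues was that of control 1.

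**Figure D3:**
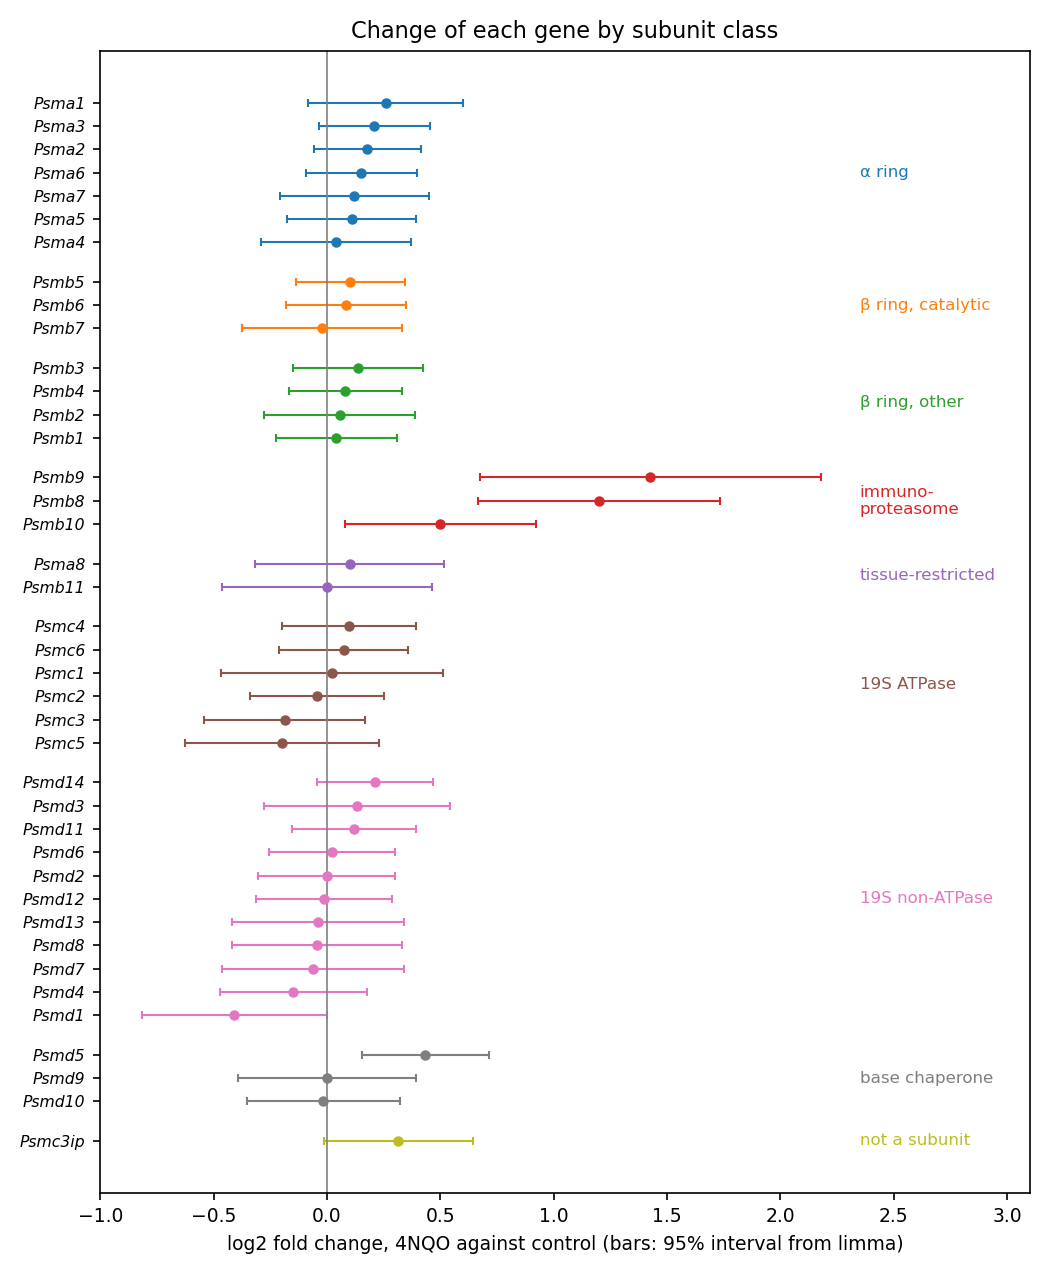
Log2 fold change of 4NQO-treated against control tongue (x axis) of each of the 40 genes, grouped and coloured by class, with bars for the 95% interval from limma (n = 3 per group). Psmb9, Psmb8, Psmb10 and Psmd5 have intervals above 0, Psmd1 has an interval just below 0, and all others include 0.

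The chaperones of the 19S base differed among themselves. Psmd5 had log2 signals of 8.39, 8.40 and 8.43 in the control tongues and of 8.81, 8.92 and 8.79 in the treated tongues. The signals were tight within each group and the groups stood clearly apart. The log2 fold change was 0.43 (standard error 0.12, 95% interval 0.16 to 0.71), or 1.35-fold (adjusted p = 0.265 from limma). The other chaperones, Psmd9 and Psmd10 (gankyrin), had log2 fold changes of -0.00031 and -0.02. Psmc3ip, which is not a proteasome gene, had log2 signals of 6.50, 6.32 and 6.32 in the control tongues and of 6.76, 6.65 and 6.68 in the treated tongues, with a log2 fold change of 0.31 (limma, adjusted p = 0.497).

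Of the 80 probe sets of the 40 genes, 0 passed over all 34945 single-gene probe sets. Of the 21 genes with several probe sets, 11 had all of them on the same side of 0. The 40 probe sets that were not used had log2 fold changes of -0.39 (Psmd7) to 0.82 (Psmb4), 22 of them positive and 18 negative. Those of Psmc4, Psmd6 and Psmc3ip reached 0.48, 0.44 and 0.71, and others of Psmd9, Psma5 and Psma3 had -0.30, -0.30 and -0.26.

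The partners of the proteasome did not pass the test either. The activator caps and the inhibitor were represented by 4 genes with a probe set of their own. An unadjusted p under 0.05 was reached by 0 of them, against 6.68% of all genes on the higher side and 3.74% on the lower. Psme1, a subunit of the interferon-inducible PA28 cap, had log2 signals of 9.91, 9.62 and 9.63 in the control tongues and of 9.70, 9.97 and 10.02 in the treated tongues. The groups overlapped through control 1, and the log2 fold change was 0.18 (adjusted p = 0.691 from limma). Psme3, the nuclear PA28 subunit, had 0.28, Psme4 (PA200) had 0.01 and the inhibitor Psmf1 had 0.07. Psme2, the partner of Psme1, was measured only on a probe set that it shares with another gene and was not tested.

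Of the 10 assembly and proteasome-bound factors with a probe set of their own, 8 had a positive log2 fold change, against 47.7% of all genes. An unadjusted p under 0.05 was reached by 3 on the higher side and 0 on the lower, against 6.68% and 3.74% of all genes. Psmg2, an assembly chaperone of the α ring, had a log2 fold change of 0.38 and Usp14, a deubiquitinase bound to the 19S particle, had 0.40 (adjusted p = 0.420 and 0.436 from limma). The third was Sem1, a small 19S subunit, with 0.26. With the mean of all probe sets of a gene, Psmg2 had 0.14 and Usp14 0.0572, with unadjusted p-values of 0.362 and 0.708 from limma.

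Of 6 genes that govern transcription of proteasome genes, 2 had a positive and 4 a negative log2 fold change, with a median of -0.16. Over all genes, 47.7% were positive. At an unadjusted p under 0.05, 1 (Nfe2l2) was higher and 0 were lower, against 6.68% and 3.74% of all genes. Nfe2l2, which encodes NRF2, had log2 signals of 9.85, 9.79 and 10.29 in the control tongues and of 10.56, 10.66 and 10.52 in the treated tongues. The groups did not overlap, and the log2 fold change was 0.61 (adjusted p = 0.231 from limma). A second probe set, below the array medians at a mean log2 signal of 4.12, had -0.07, and the mean of both gave 0.27 (unadjusted p = 0.273 from limma). Nfe2l1, which encodes NRF1, the factor that restores proteasome genes when proteasome activity is lost, had 10.94, 10.92 and 10.26 in the control tongues and 10.50, 9.97 and 10.24 in the treated tongues. These groups overlapped, and the log2 fold change was -0.47 (adjusted p = 0.502 from limma).

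Class I antigen processing genes, which share a pathway with the immunoproteasome, were on the same side as the immunosubunits. All 10 had a positive log2 fold change, where 47.7% of all genes did, and their median was 0.56. At an unadjusted p under 0.05, 7 were higher and 0 lower, against 6.68% and 3.74% of all genes. The adjusted test was passed by 0 of them, and by 0.132% of all genes. H2-K1 and H2-D1, class I heavy chains, had log2 fold changes of 1.13 and 0.92 (adjusted p = 0.0761 and 0.0883 from limma). H2-K1 passed without control replicate 1 (adjusted p = 0.0315 from limma), and over all alternatives its adjusted p was 0.0315 to 0.338. With the mean of all probe sets of the gene, H2-D1 had 0.50. Class I genes are closely alike in sequence, so that their probe sets may read each other's transcripts.

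Control 1 stood apart from the other control tongues in some interferon regulators and targets, such as Nlrc5 and Cxcl9, and not in others. Irf1 had log2 signals of 8.05, 8.27 and 8.02 in control 1, 2 and 3, and Irf8 had 5.65, 5.45 and 5.85. Of these regulators and targets, 0 of 12 passed the adjusted test, and 0.132% of all genes did. All 12 with a probe set of their own had a positive log2 fold change, where 47.7% of all genes did, and their median was 0.96. An unadjusted p under 0.05 was reached by 8 on the higher side and 0 on the lower, against 6.68% and 3.74% of all genes. In 2 of the 12 every treated tongue lay above every control tongue, which was so for 9.59% of all genes. Nlrc5, the transactivator of class I genes, had log2 signals of 6.43, 4.58 and 4.43 in the control tongues and of 7.18, 7.83 and 7.27 in the treated tongues. Its log2 fold change was 2.28 (adjusted p = 0.156 from limma), and 2.92 without control replicate 1 (adjusted p = 0.0315 from limma). Over all alternatives its adjusted p from limma was 0.0315 to 0.471. Irf9, which pairs with STAT factors, had a log2 fold change of 1.03 (limma, adjusted p = 0.194). Cxcl9, a chemokine induced by interferon-γ, had 7.90 in control 1, against 4.06 and 3.90 in the other control tongues and 6.96 to 7.95 in the treated tongues. Ifng itself had log2 signals of 1.91 to 2.25, below the array medians in all 6 tongues.

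The position of each tongue was compared across these groups by the median, over the genes of a group, of each tongue's log2 signal minus the control mean of the gene. For the immunosubunits this median was 0.34, -0.18 and -0.30 in control 1, 2 and 3 and 0.77, 1.32 and 1.51 in 4NQO 1, 2 and 3. For class I genes it was 0.22, -0.16 and -0.05 in the control tongues and 0.62, 0.67 and 0.57 in the treated tongues. In both, control 1 was the highest control and lay below the treated tongues. For interferon genes it was 0.67, -0.45 and -0.34 in the control tongues and 0.56, 1.05 and 1.25 in the treated tongues, so that control 1 lay above 4NQO 1. For the constitutive core it was 0.10, -0.05 and -0.05 in the control tongues and 0.01, 0.15 and 0.10 in the treated tongues, and for all genes it stayed between -0.04 and 0.03.

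Leukocytes hold immunosubunits, so their markers were set beside these values. There were 15 leukocyte markers with a probe set of their own, 10 with a positive log2 fold change and 5 with a negative one. Of all genes, 47.7% were positive. An unadjusted p under 0.05 was reached by 5 on the higher side and 1 on the lower, against 6.68% and 3.74% of all genes. The lower one was Cd79a, with a log2 fold change of -0.59. Every treated tongue lay below every control tongue in Cd79a, which was so for 7.18% of all genes. The adjusted test was passed by 0 of the 15, and by 0.132% of all genes. Itgax, an integrin of dendritic cells, had a log2 fold change of 1.15 (limma, adjusted p = 0.0703, and 0.0498 with the arrays centred on their medians) and Cd74, the invariant chain of class II molecules, 0.82 (adjusted p = 0.281 from limma). The mean log2 signal over the 15 markers was 5.67 to 5.99 in control tongue and 5.85 to 6.52 in treated tongue. The median shift was 0.13, -0.19 and -0.06 in the control tongues and -0.06, 0.49 and 0.66 in the treated tongues. In 4NQO 1 this median lay inside the control range, while Itgax, at 5.90 against 4.86 to 5.20 in the control tongues, and Cd74, at 10.99 against 10.33 to 10.87, lay above it. Of the 15 markers, only these 2 had every treated tongue above every control tongue, so their place in 4NQO 1 follows from that. Of all genes, 9.59% had every treated tongue above every control tongue. Ptprc, Cd3g and Nkg7, also higher at an unadjusted p under 0.05 from limma, lay inside their control ranges in 4NQO 1, at 6.05, 3.67 and 3.58. The part of leukocytes in the higher immunosubunit signals was not tested.

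**Figure D4:**
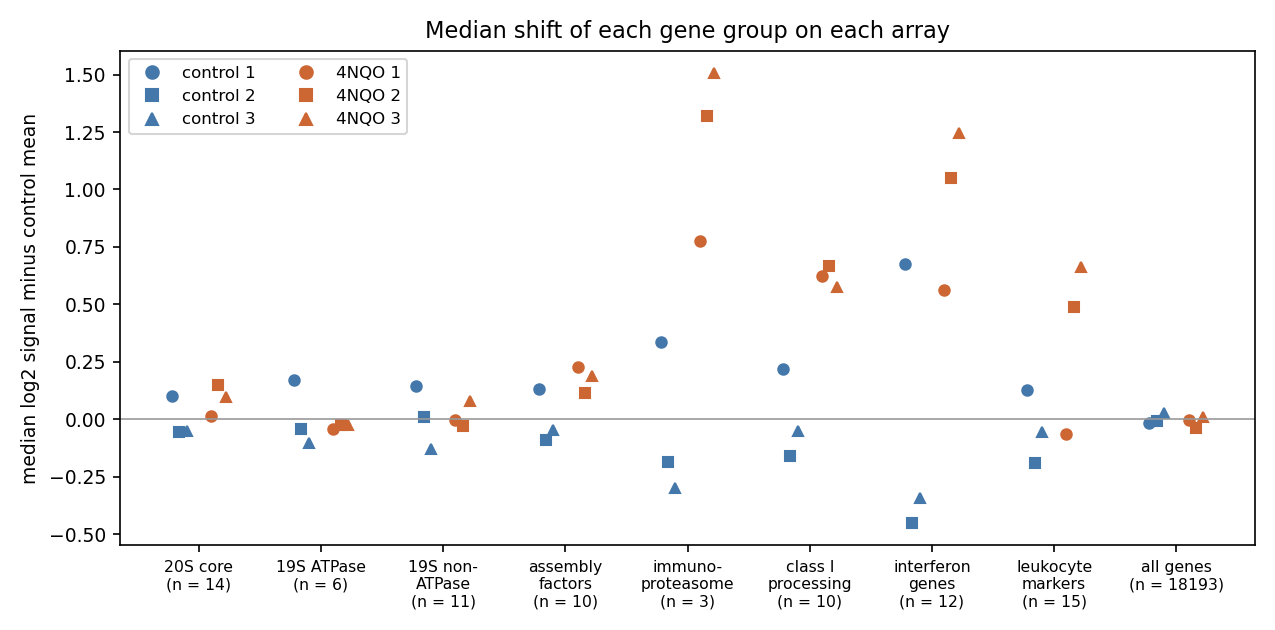
Median over the genes of each group of the log2 signal minus the control mean of the gene (y axis), with 1 point per tongue and the number of genes under each group (x axis). The treated tongues lie above all control tongues for the immunosubunits (0.77 to 1.51 against -0.30 to 0.34) and the class I genes (0.57 to 0.67 against -0.16 to 0.22), and overlap them in all other groups shown.

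The median log2 fold change was 0.23 over the 15 leukocyte markers, -0.15 over 10 skeletal muscle markers, 0.14 over 9 keratinocyte markers, -0.28 over 6 fibroblast markers and 0.03 over 5 endothelial markers. At an unadjusted p under 0.05, 1 keratinocyte marker was higher (Krt14, 0.32) and 1 fibroblast marker was lower (Col1a2, -0.50), against 6.68% and 3.74% of all genes. The remaining named markers Krt15, Dcn, Myh4, Mb, Pecam1 and Vwf had log2 fold changes of -0.64, -0.20, -0.17, -0.13, -0.27 and 0.32. With the mean of all probe sets, Dcn and Myh4 had -0.63 and -0.64 (unadjusted p = 0.00225 and 0.0265 from limma). Without control replicate 1, Vwf had 0.0257. The mean log2 signal over the 10 muscle markers was 11.6 in control 3 and 11.5 in 4NQO 2. On the other arrays it was 12.3 to 12.5. Myh2 varied most among these markers, with 5.43 in control 3, 5.01 in 4NQO 2 and 8.49 to 9.36 on the other arrays. The signal of Gapdh at its 3′ end exceeded that at its 5′ end by 1.67 log2 units in control 3 and by 1.07 in 4NQO 2. The other 4 arrays gave 0.086 to 0.47. The same difference for actin ranked the arrays otherwise, with 1.12 in 4NQO 1, 1.01 in control 3, 0.95 in 4NQO 2 and 0.55 to 0.83 on the rest. Without control 3 and 4NQO 2, the log2 fold changes of Psmb8, Psmb9 and Psmb10 were 1.06, 1.11 and 0.39, and an unadjusted p under 0.05 was reached by 3 proteasome genes on the higher side and 1 on the lower.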

How the data were processed

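The deposited log2 signals were produced by the authors with R and Bioconductor, and their normalization method is not stated in the sources at hand. Of 45101 probe sets, 34945 were annotated to 1 gene and were used, and 0 value columns were left out. The mice were individual animals, and with 3 arrays per group their number limits the precision.

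Groups were compared with limma 3.58.1 in R 4.3.3 (lmFit, and eBayes with an intensity trend), fitted over all 18193 genes without a filter on dim genes, and p-values were adjusted by Benjamini-Hochberg and called under 0.05. Intervals are limma's 95% intervals of single genes. SAM was written for this work with all 20 label permutations and a median of fewer than 1 false positive. The calls of limma were checked on simulated data with independent noise in each gene. Those of SAM were recorded on the same data and not checked. Differences between paired subunits were tested by exact permutation. The genes and the 19 gene lists were chosen with earlier results of these data known, and counts over a list are descriptions.

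The named genes are the catalytic subunits, the 2 genes with the smallest p in each direction of each class with at least 3 genes, the tissue-restricted subunits, Psmc3ip, the activators and inhibitor, Nfe2l1, Nfe2l2 and up to 2 genes of each other list. Psma1, Psma4, Sem1, Tap1, Cxcl9, Ifng, Irf1, Irf8, Ptprc, Cd3g, Nkg7, Cd79a and Myh2 were chosen after values were seen. So were the further probe sets of proteasome genes and of Tap1, and the motifs. Other scalings, variance models, probe set choices, thresholds, left-out arrays and a replicate block were tried as alternatives.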

Additional observations from a re-analysis of the deposited data

How the results depend on the processing

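The numbers of proteasome genes higher and lower at an adjusted p were 0 and 0 under all 16 alternatives, including SAM and a threshold of 0.1, while over all genes the 23 higher became 63 with centred arrays, 12 without dim genes, 15 with the mean of all probe sets of a gene, 83 with SAM, 103 at a threshold of 0.1, 4 without both arrays of largest Gapdh difference and 0 without control replicate 2, 10 without 4NQO replicate 1 and 1 without 4NQO replicate 2, and the 1 lower became 8 at a threshold of 0.1 and 0 to 2 otherwise. At an unadjusted p under 0.05, 3 to 7 proteasome genes were higher, with 7 both with centred arrays and with the mean of all probe sets, and 3 to 4 when single arrays were left out. The 1 gene that was lower (Psmd1) became 0 with centred arrays, without the intensity trend, without dim genes, with the mean of all probe sets and with probe sets without the suffix x or s, and 0 to 1 when single arrays were left out. The cause was not tested. The median log2 fold change of the immunosubunits was 0.60 to 1.41 and positive under all alternatives, with 0.60 under the mean of all probe sets, where the dim second probe set of Psmb8 enters. That of the core was 0.0565 to 0.181, and that of the 19S genes -0.0558 to 0.0705, positive under 3 of the 16. Across alternatives the adjusted p from limma was 0.0877 to 0.388 for Psmb8, 0.0581 to 0.50 for Psmb9 and 0.269 to 0.679 for Psmb10.

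The same-numbered tongues did not deviate together, with correlations of 0.33, -0.46 and 0.0065, and nothing in the labels pairs them. With a replicate block, 0 proteasome genes passed and 2 genes over all were higher, and Psmb8 had an adjusted p of 0.321 from limma.

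With the mean of all probe sets, Psme3 had a log2 fold change of 0.0865 and Psmc3ip 0.51 (unadjusted p = 0.00586 from limma). Values of named genes also moved by over 1.5 times without 1 array, as in these examples. Without control replicate 1, Psmc3 had -0.0923, Psmc5 -0.0866, Psmd4 -0.0908, Psmd11 0.0705, Psmb4 0.132 and Psmb6 0.156. Without 4NQO replicate 1, Krt15 had -0.424 and Psme3 0.182, without 4NQO replicate 2, Krt15 had -0.977, Usp14 0.264 and Vwf 0.15, without control replicate 2, Pecam1 had -0.156, and without control replicate 3, Col1a2 had -0.322 and Vwf 0.644.

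Log2 fold changes near 0 changed sign, none of them called. With quantile normalization Psmb11 had 0.045 and Psme4 -0.023. With centred arrays Psmb7 had 0.0526, Psmd10 0.0585, Psmd9 0.0746 and Psmb11 0.0747. With the mean of all probe sets Psma3 had -0.0261, Psme4 -0.119 and Mb 0.0347, and with probe sets without the suffix x or s Psmd11 had -0.0707. Without both arrays of largest Gapdh difference Psmc6 had -0.0133, Psmd9 0.203 and Psme4 -0.077. Leaving out single arrays gave -0.105 to 0.0987 for Psmb7, -0.199 to 0.112 for Psmb11, -0.00872 to 0.133 for Psmc6, -0.0803 to 0.14 for Psmd9, -0.0708 to 0.0556 for Psmd10, -0.10 to 0.214 for Psma8 and -0.0365 to 0.0811 for Psme4.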
